A study of Mus musculus with 6 samples.

Results

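The genes described here are Mecom, the locus that encodes Evi1, its paralogue Prdm16, and 8 genes for proteins that Evi1 is known to recruit or bind: Ctbp1, Ctbp2, Hdac1, Suv39h1, Ehmt2, Kat2b, Smarca4 and Mbd3. Members were taken as every probe set whose platform annotation gives 1 gene symbol that is on this list. The rule found 19 of the 45037 probe sets tested and 9 of the 10 genes, out of 18193 genes with such a probe set. Suv39h1 had none and was not analysed here.

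Expression was measured on 6 arrays from the myeloid clone C6, 1 clone of mouse haematopoietic progenitors of background strain Rosa26rtTA C57BL/6J. All arrays, controls included, come from cells that carry pRRL.TET.Evi1.IRES.EGFP, a vector that makes a codon-optimized murine Evi1 and a green fluorescent marker while doxycycline is present, and the series calls the clone dependent on Evi1. The dox group (3 arrays) was kept under 1 µg/ml doxycycline, and the withdrawal group (3 arrays) was taken 48 h after the drug was removed, both in the same S3F11 medium, which supplies interleukin 3 at 20 ng/ml and stem cell factor, interleukin 11 and Flt3 ligand at 50 ng/ml each. Whether replicates were separate cultures is not in the labels, and the p-values therefore cover array-to-array spread that may be technical. Removal of the drug and loss of the transgene's product cannot be told apart in this design.

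Evi1 is a zinc finger protein that holds blood stem cells in an immature state and is overexpressed in some acute myeloid leukaemias. It carries an N-terminal and a C-terminal group of zinc fingers that bind DNA, with a repression region that docks the corepressors CtBP1 and CtBP2, and through these and direct contacts it brings histone deacetylases and H3K9 methyltransferases to its targets. The longer product of the same locus, MDS1-EVI1, starts from an upstream promoter and adds a PR domain, which the paralogue Prdm16 also has. Other partners act on Evi1 itself or on chromatin: the acetyltransferase PCAF acetylates Evi1, the remodelling ATPase BRG1 is bound by it, and MBD3 is the subunit of the NuRD complex through which Evi1 is known to restrain histone deacetylation.

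The natural starts of Mecom and Prdm16 are shown because the deposited probe sets were made to these loci, while the transgene is driven by the vector's own TET promoter. The windows are the 250 bases before each start, taken from RefSeq on GRCm38.p6 and printed 5′ to 3′ on the minus strand, on which both genes lie. The upstream Mecom start lies below chr3:30509760-30510009, the downstream one below chr3:30013205-30013454, and that of Prdm16 below chr4:154636874-154637123. Capitals mark matches, on either strand, to GACAAGAT, the start of the sequence that the N-terminal fingers of Evi1 are known to prefer, or to GATAA.
Mecom, upstream start: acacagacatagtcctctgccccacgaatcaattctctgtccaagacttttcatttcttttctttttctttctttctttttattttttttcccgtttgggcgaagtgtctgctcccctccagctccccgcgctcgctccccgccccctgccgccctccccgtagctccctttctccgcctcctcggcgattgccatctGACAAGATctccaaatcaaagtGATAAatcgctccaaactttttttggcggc
Mecom, downstream start: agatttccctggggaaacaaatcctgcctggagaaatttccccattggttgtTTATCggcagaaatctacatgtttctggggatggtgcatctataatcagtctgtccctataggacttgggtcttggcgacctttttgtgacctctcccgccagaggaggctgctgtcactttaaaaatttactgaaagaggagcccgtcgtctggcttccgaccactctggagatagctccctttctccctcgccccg
Prdm16: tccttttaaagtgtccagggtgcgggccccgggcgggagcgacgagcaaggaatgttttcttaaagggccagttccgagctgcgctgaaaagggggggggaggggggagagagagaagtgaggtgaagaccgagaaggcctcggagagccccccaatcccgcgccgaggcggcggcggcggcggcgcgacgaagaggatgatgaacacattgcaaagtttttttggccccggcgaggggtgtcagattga

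GACAAGAT was found only in the upstream Mecom window, at -52 to -45 from the start, among 14 windows of 9 members. It was present in 0.597% of all 32851 promoter windows of the same length. These 9 members include Suv39h1 and leave out Hdac1, which had no window. GATAA was present in both Mecom windows, at -30 to -26 on the printed strand and at -198 to -194 on the other, and in no other member window; 22.6% of all windows held it. The longer GACAAGATA (0.107% of all windows) and GATGAG (10.1%), the core bound by the C-terminal fingers, were in none of the 14. GACAAGAT was added with the sequences in view, and a match is a description of letters, not evidence of binding. The upstream Mecom window had 50.8% G or C, the downstream one 50.4% and that of Prdm16 62.4%.

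The transcribed ends of the paralogues also share letters. A run of 24 bases lies at 27 to 50 after the upstream Mecom start and at 10 to 33 after the Prdm16 start. Exact copies of it were in 0 of 32848 windows of other genes. A run this long is unlikely to recur exactly in any window, so that count does not show how unusual the sharing is. The longest runs shared by other pairs of genes were not measured.
Shared run: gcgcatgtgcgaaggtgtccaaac
Between the downstream Mecom start and Prdm16 the longest shared run was 7 bases.

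None of the 9 measured genes passed the test after withdrawal. In limma, 0 of 19 member probe sets passed an adjusted p of 0.05, against 1.97% of all probe sets, and 0 of 9 genes read from their brightest probe set, against 2.77% of all genes. A count of 0 among so few lies near these background shares and is not particular to these genes. At an unadjusted p below 0.05 there were also 0 of 19, where 14.3% of all probe sets passed, and the groups were apart without overlap in 0 of 19, where they were in 20.8% of all probe sets. The exact two-sided permutation test over the arrays gave p from 0.3 to 1.0 for single probe sets, and the smallest it can give with 3 against 3 is 0.1. Bulk arrays cannot tell fewer cells of a type from less RNA per cell.

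Differences below are withdrawal minus dox in log2 units, ± the standard error from limma (n = 3 per group), and intervals are 95% for 1 probe set at a time. The 19 differences ran from -0.12 to 0.27 with a median of -0.01, beside a median of 0.01 over all probe sets. Their median size without sign was 0.06, against 0.09 over all. The intervals of 18 of 19 lay within 0.5 of 0 on the log2 scale, and on the brightest probe sets they covered folds from 0.749 to 1.20 at the widest. To be called at its own standard error a member probe set needed a difference of 0.33 to 0.89, that is 1.26-fold to 1.86-fold. Smaller changes were not detectable with these arrays, so values that missed the threshold do not show that the groups were alike.

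**Figure D1:**
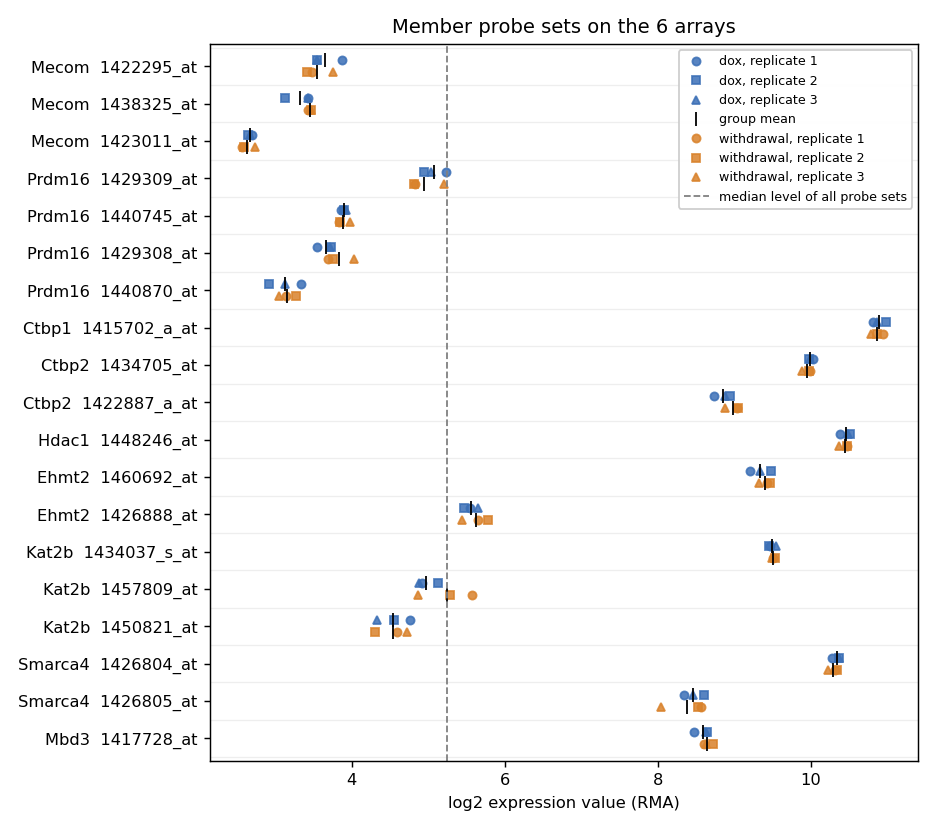
Log2 expression values (x axis, RMA) of the 19 member probe sets (rows) on each of the 6 arrays, dox in blue and withdrawal in orange, with replicates by symbol, group means as black ticks and the median level of all probe sets as a dashed line. The groups overlap in every row, and all 3 Mecom and all 4 Prdm16 probe sets lie left of the dashed line at 5.24.

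Mecom was read by 3 probe sets, all dim. Probe set 1422295_at read 3.49, 3.41 and 3.76 on withdrawal replicates 1 to 3 and 3.88, 3.54 and 3.54 on the dox replicates. The highest value was on dox replicate 1 and the groups overlapped, with a difference of -0.10 ± 0.13 (interval -0.40 to 0.19, limma adjusted p = 0.788). Probe set 1438325_at read 3.43, 3.47 and 3.47 after withdrawal against 3.43, 3.13 and 3.43 under dox. Its value was low on dox replicate 2 alone, and only 3 different values occur among the 6, since exact repeats make up the rest. Such repeats occur in 4.02% of all probe sets, mostly dim ones (1445 of 1812), so the spread of this probe set is not that of 6 free readings. Its difference was 0.13 ± 0.09 (limma adjusted p = 0.615).

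The third, 1423011_at, was at the 0.977th percentile of all probe sets by mean level, with 2.57, 2.59 and 2.74 after withdrawal and 2.69, 2.64 and 2.67 under dox. Its withdrawal values lay on both sides of the dox values, at a difference of -0.04 ± 0.07. The other 2 were at the 21.1st and 16.3rd percentiles. At these levels RMA compresses differences, and a probe set designed to natural Mecom may not read a codon-optimized message, so the 6 arrays give no measure of how much transgene message was lost.

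Prdm16, a regulator of stem cells and of brown fat that shares the PR domain and both groups of fingers with the Mecom product, was read by 4 probe sets below the median level. The brightest, 1429309_at, read 4.82, 4.82 and 5.21 on withdrawal replicates 1 to 3 and 5.23, 4.94 and 5.04 on the dox arrays. Withdrawal replicate 3 and dox replicate 1 were the high arrays, and the difference was -0.12 ± 0.13 (interval -0.42 to 0.18, limma adjusted p = 0.747). Probe set 1429308_at went the other way, with 3.70, 3.75 and 4.03 against 3.54, 3.73 and 3.71, a difference of 0.16 ± 0.11 in which the withdrawal value of replicate 1 lay below 2 of the 3 dox values. On 1440745_at all values lay between 3.83 and 3.98 (-0.01 ± 0.07), and on 1440870_at between 2.92 and 3.33 (0.03 ± 0.11). The signs of the 4 thus differed, and the mean of the 4 gave 0.02.

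The corepressors CtBP1 and CtBP2 are dimeric proteins that sense NADH and dock onto short motifs of transcription factors, Evi1 among them. Ctbp1 read 10.94, 10.86 and 10.78 after withdrawal and 10.81, 10.98 and 10.86 under dox, at the 95.8th percentile. Lowest was withdrawal replicate 3 and highest dox replicate 2, so that each group spanned the other's mean, with a difference of -0.02 ± 0.08 (interval -0.21 to 0.16, limma adjusted p = 0.936).

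Ctbp2 was read by 2 probe sets that differed in sign. On 1434705_at the values were 9.99, 9.97 and 9.88 against 10.02, 9.97 and 9.98, a difference of -0.04 ± 0.07 (interval -0.20 to 0.11). On 1422887_a_at they were 9.04, 9.05 and 8.88 against 8.74, 8.94 and 8.88, a difference of 0.13 ± 0.08 (interval -0.06 to 0.33, limma adjusted p = 0.550). The latter had the smallest unadjusted p of the 19 (0.155), and withdrawal replicate 3 fell inside the dox range. Ctbp2 has 2 starts in the RefSeq promoter table, which were not tied to the probe sets, and the difference between the 2 readings was not tested.

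Among the histone-modifying partners, Hdac1, a class I deacetylase of the NuRD, Sin3 and CoREST complexes, read 10.48, 10.47 and 10.37 after withdrawal and 10.38, 10.51 and 10.49 under dox. Both groups held 1 low array and 2 close together, and the difference was -0.02 ± 0.07 (interval -0.18 to 0.14, limma adjusted p = 0.942). Expressed as a fold this interval runs from 0.881 to 1.11. Ehmt2 encodes G9a, which places H3K9 mono- and dimethylation. Its brighter probe set, 1460692_at, read 9.42, 9.46 and 9.32 against 9.20, 9.47 and 9.33, a difference of 0.06 ± 0.09 (limma adjusted p = 0.816) in which dox replicate 1 was low. On the dimmer 1426888_at the values were 5.66, 5.78 and 5.44 against 5.55, 5.46 and 5.65, with withdrawal replicates both above and below all dox arrays (0.07 ± 0.10).

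Kat2b, the gene of PCAF, had 1 bright and 2 dim probe sets. The bright one, 1434037_s_at, whose suffix marks probes that may match more than 1 transcript, read 9.51, 9.53 and 9.49 after withdrawal and 9.47, 9.45 and 9.55 under dox. Its standard error was the smallest of the 19, with a difference of 0.02 ± 0.06 (interval -0.13 to 0.17). On 1457809_at the values were 5.58, 5.29 and 4.86 against 4.92, 5.13 and 4.88. This was the largest difference and the widest error among the members, 0.27 ± 0.17 (interval -0.13 to 0.67, limma adjusted p = 0.559), since withdrawal replicate 1 stood above every other array and replicate 3 below all. Probe set 1450821_at ran from 4.30 to 4.76 with a difference of -0.01 ± 0.14.

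Smarca4, the gene of BRG1, the motor subunit of SWI/SNF, read 10.32, 10.35 and 10.22 after withdrawal and 10.27, 10.37 and 10.37 under dox on 1426804_at. Withdrawal replicate 3 was the lowest array and the difference was -0.04 ± 0.07 (interval -0.21 to 0.12, limma adjusted p = 0.842). On 1426805_at withdrawal replicate 3 was again lowest, at 8.04 beside 8.57 and 8.52 in its own group and 8.34, 8.60 and 8.46 under dox. That single array set the sign, since the difference was -0.09 ± 0.15 with it and 0.08 without it. Mbd3 read 8.60, 8.71 and 8.63 against 8.48, 8.64 and 8.63, with dox replicate 1 low, and differed by 0.06 ± 0.08 (interval -0.11 to 0.24, limma adjusted p = 0.776).

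**Figure D2:**
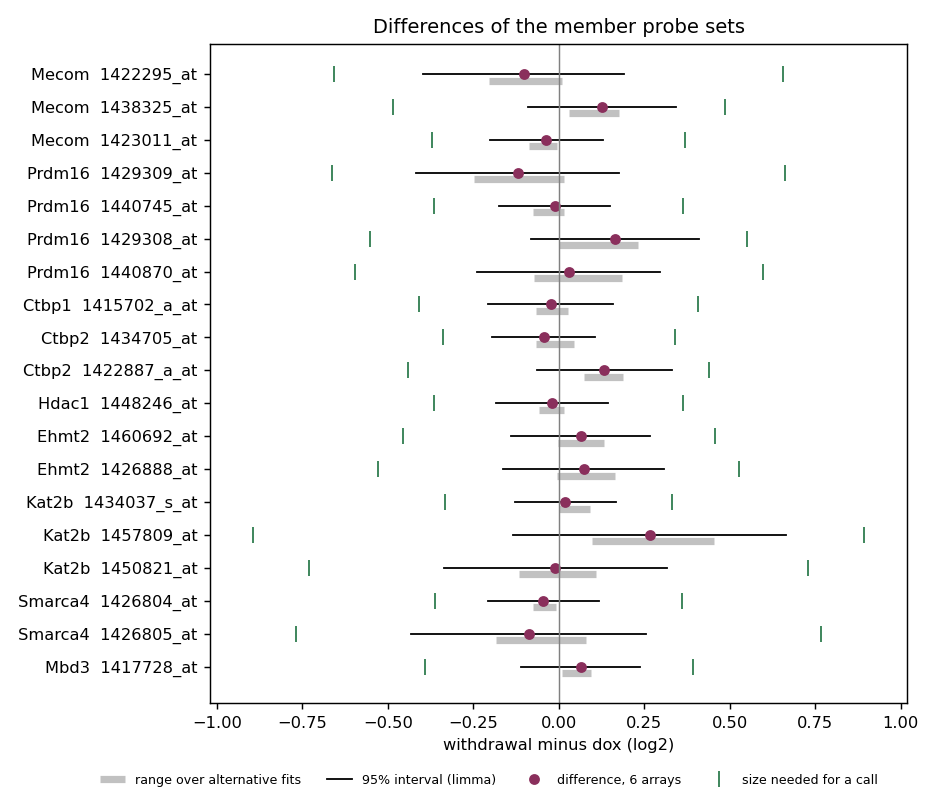
Difference of each member probe set, withdrawal minus dox in log2 units (x axis), as a point with its 95% limma interval (black line), the range of that difference over the alternative fits (grey bar) and the size it needed for a call (green ticks). Every interval covers 0, every point lies inside its green ticks, and the widest interval is that of Kat2b 1457809_at, from -0.13 to 0.67.

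Among the members, low and high values gathered on particular arrays of both groups. On the 10 probe sets at or above the median level, withdrawal replicate 3 was lowest on 6 and dox replicate 1 on 3, with median deviations from the mean over the 6 arrays of -0.08 and -0.06. On the 9 dimmer ones the same arrays were highest, 3 times and 4 times, with median deviations of 0.09 and 0.04. Over all 22519 probe sets at or above the median level, withdrawal replicate 3 was lowest on 28.8% and dox replicate 1 on 20.6%. Over all 22518 below it, withdrawal replicate 3 was highest on 28.6% and dox replicate 1 on 13.8%, with median deviations of 0.045 and -0.008. The high values of dox replicate 1 on dim member probe sets were thus not those of dim probe sets at large. Dox replicate 2 was highest on 5 of the 10 brighter member probe sets, beside 16.7% of all at that level. Withdrawal replicate 3 and dox replicate 1 were also the only arrays with negative scores on the second principal component, at -23.0 and -11.4. In distance from 0 only withdrawal replicate 3 stood apart, since dox replicate 2 was at 12.4 and withdrawal replicate 1 at 11.9. That component held 31.9% of the variance of the brighter probe sets, while the first held 47.7% and separated the groups.

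Without both of these arrays 0 of 19 member probe sets were called as well, while the calls over all probe sets fell from 356 to 28 higher and from 530 to 94 lower. In that fit on 4 arrays Ctbp2 1434705_at differed by 0.004, Kat2b 1450821_at by 0.005 and Smarca4 1426805_at by 0.02, each of opposite sign to its value on 6 arrays. What lies behind the shared pattern of the 2 arrays was not tested.

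**Figure D3:**
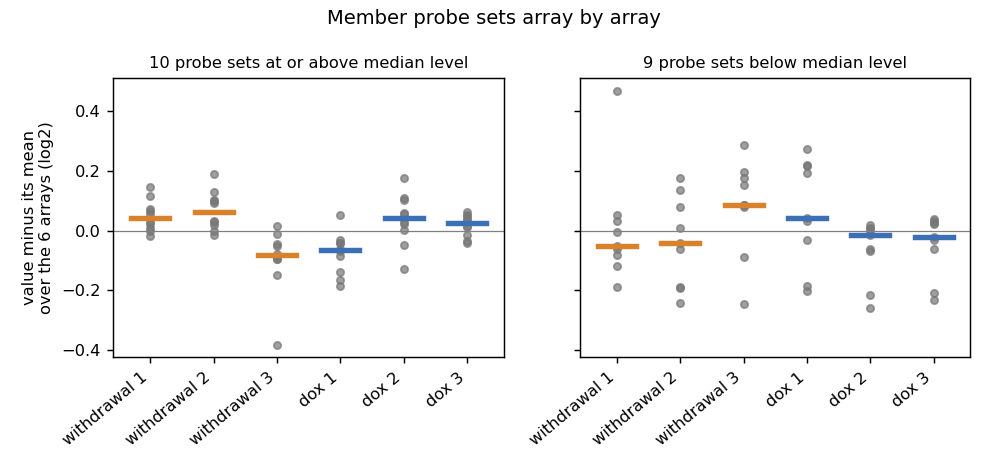
Value of each member probe set minus its mean over the 6 arrays (y axis, log2), array by array (x axis), for the 10 brighter (left) and 9 dimmer probe sets (right), with coloured bars for the median of each array. The bars of withdrawal replicate 3 and dox replicate 1 lie at -0.08 and -0.06 on the left and at 0.09 and 0.04 on the right.

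The pattern of Prdm16 over the arrays, chosen because its brightest probe set had the smallest p of the 9, was compared with 11143 genes at or above the median level. Closest were Sp4, a zinc finger factor of the Sp family (root mean square distance 0.04 log2 units), the RNA-binding protein gene Mex3a (0.04) and Spry1, a feedback inhibitor of receptor tyrosine kinase signalling (0.05), where the spread of Prdm16 itself was 0.17. In all 4 genes the highest values were those of withdrawal replicate 3 and dox replicate 1. The differences of the 3 were -0.11, -0.11 and -0.08, and none was called in limma.

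The neighbours of both loci were read by the RefSeq gene order. Of the 3 nearest measured protein-coding genes on each side of Mecom, none passed. Rpl22l1, a paralogue of a ribosomal protein gene, had the smallest p, with 12.57 ± 0.08 after withdrawal and 12.91 ± 0.06 under dox (SD, n = 3). Its groups did not overlap, and the difference was -0.34 ± 0.07 (limma adjusted p = 0.0722). Its call depends on the fit, since it was called under 4 of 14 alternatives. Among these the limma adjusted p was 0.00106 with trend and robust options and 0.0215 above the median level. Eif5a2, a translation factor gene, differed by -0.36 ± 0.14 (limma adjusted p = 0.311), and Egfem1, Actrt3, Mynn and Lrrc34 by 0.04 to 0.12. Beside Prdm16, none of Arhgef16, Megf6, Tprgl, Actrt2, Ttc34 and Mmel1 passed, with differences from -0.11 to 0.09.

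The wider family and the complexes in which these partners work were read from lists drawn up with earlier results known. Of 15 PR domain genes 12 were measured and 0 were called in limma, with differences from -0.12 (Prdm16) to 0.10 (Prdm14) and a median of 0.05. Across the CtBP, NuRD, Sin3, SMRT or NCoR, SWI/SNF, SAGA and polycomb complexes, the deacetylases, the acetyltransferases and the H3K9 and HP1 proteins, 139 genes other than the members were measured of 147 listed. Of these 0 were called in limma, where 2.77% of all genes were. The median difference was -0.01, beside 0.01 over all genes, and 14 of the 139 had an unadjusted p below 0.05, where 16.3% of all genes did. The groups did not overlap in 28 of the 139 genes, and in 24.7% of all genes.

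By complex, the medians lay between -0.05 for 15 H3K9 and HP1 genes and 0.01 for 27 SWI/SNF genes, with 0 called on each list. The largest single difference was that of Zeb2, a zinc finger repressor that recruits CtBP, at -0.41 ± 0.09 (limma adjusted p = 0.0745). It was 8.09 ± 0.14 after withdrawal and 8.50 ± 0.08 under dox (SD, n = 3), without overlap, and it was called under 4 of the alternatives, at adjusted p from 0.00949 to 0.0440. Ikzf1, the lymphoid factor Ikaros, also a CtBP partner, differed by 0.24 ± 0.07 (limma adjusted p = 0.141) on its brighter probe set and by -0.11 on the other. In the NuRD list Chd3, a helicase subunit, differed by -0.26 ± 0.10 and Mta3 by -0.22 ± 0.07. Groups did not overlap in 4 of its 14 genes, near the 24.7% of all genes, so the count is not particular to NuRD.

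Other uncalled genes with the largest differences on their lists can be given briefly. Smarcc1 and Arid1b, both SWI/SNF subunits, differed by -0.25 ± 0.07 and -0.22 ± 0.08. Tada2a, an adaptor of the SAGA and ATAC acetyltransferase complexes, differed by -0.28 ± 0.07 and Supt20 by 0.17 ± 0.07. In the polycomb list Phc1 stood at -0.35 ± 0.09 and Phf19 at 0.31 ± 0.08. Trim28, the KAP1 corepressor, differed by -0.20 ± 0.06, the HP1 gene Cbx1 by -0.17 ± 0.06, Arid4b of the Sin3 complex by -0.17 ± 0.07 and Gps2 of the NCoR complex by -0.15 ± 0.15. Of 11 deacetylase genes Hdac11 had the largest value, 0.33 ± 0.17, followed by Hdac7 at 0.18. These values are of the brightest probe set of each gene, and of the 13 listed genes named here with several probe sets, Dnmt3b and Jun included, 7 had at least 1 of opposite sign: 1 of 2 for Ikzf1 (-0.11), Hdac11 (-0.11) and Hdac7 (-0.09), 2 of 5 for Zeb2 (0.07 and 0.08), 1 of 4 for Smarcc1 (0.11), 2 of 7 for Supt20 (-0.10 and -0.06) and 1 of 6 for Arid4b (0.03).

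**Figure D4:**
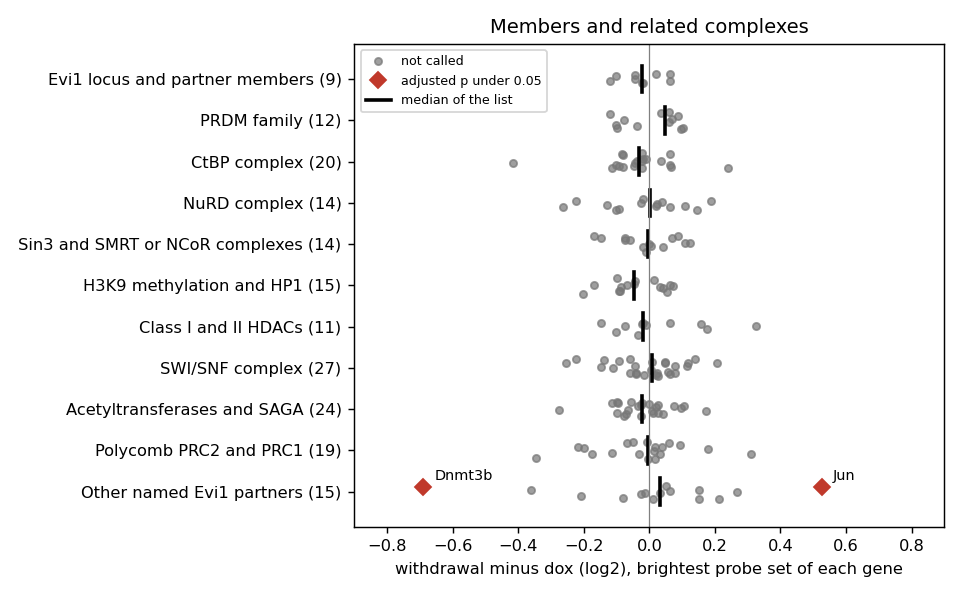
Difference of each gene, withdrawal minus dox in log2 units (x axis), on the members' list and 10 related lists (rows, with the number of genes measured), with the list medians as black bars and genes past the adjusted p of 0.05 as red diamonds. Dnmt3b at -0.69 and Jun at 0.53 are called, and the medians of the lists lie between -0.05 and 0.05.

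Among the genes of 15 other proteins that Evi1 is known to bind or act on, 2 changed, 1 in each direction, where 2.77% of all genes did. Dnmt3b, a de novo DNA methyltransferase, read 7.27, 7.35 and 7.24 after withdrawal and 7.97, 8.06 and 7.90 under dox on its brighter probe set. The groups were apart by more than their whole ranges, and Dnmt3b fell by 0.69 ± 0.07 (0.620-fold, limma adjusted p = 0.00491). Its other probe set fell by 0.64 (limma adjusted p = 0.0169). The call was kept when any 1 array was left out, and without both withdrawal replicate 3 and dox replicate 1 it was lost at limma adjusted p = 0.106 with a difference of -0.67.

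Jun, a subunit of AP-1, whose activity Evi1 is known to raise, read 9.63, 9.57 and 9.40 after withdrawal and 8.97, 9.01 and 9.04 under dox. It rose by 0.53 ± 0.08 (1.44-fold, limma adjusted p = 0.0207), and its dimmer probe set by 0.37 (limma adjusted p = 0.0439). The call of Jun was lost without withdrawal replicate 1 or 2 or without any 1 dox replicate (limma adjusted p from 0.0601 to 0.103). It was also lost with the replicate number as a block (0.0890) and on 4 arrays (0.0919). Gata1, the red cell and megakaryocyte factor, differed by -0.36 ± 0.10 and Spi1, the myeloid factor PU.1, by 0.27 ± 0.09, and neither passed (limma adjusted p = 0.141 and 0.245).

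The arrays carried the markers of the labelled cell type. All 10 progenitor markers were at or above the median level, from the 56.5th percentile for Flt3 to the 99.9th for Mpo, and of these Cd34 fell (-0.51, limma adjusted p = 0.0463). Of 6 measured megakaryocyte markers 4 fell, namely Selp, Ppbp, Gp9 and Pf4, and the summed log2 level of the 6 was 40.5 to 41.1 after withdrawal and 46.7 to 47.4 under dox. Among 4 B cell markers, all below the median level, Cd79b fell by 0.57. None of 5 T cell, 5 stromal, 5 endothelial and 5 red cell markers was called in limma, and neither was any of 14 proliferation genes (median difference 0.04). The part of these markers in the values of Dnmt3b and Jun was not tested.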

How the data were processed

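The authors deposited 1 table of log2 expression values per probe set and array, made with RMA per the submitters' processing notes; the labels' protocols give total RNA, SPIA-amplified cDNA and biotin labelling. The log2 unit was read from the values; RMA's version and chip definition are not given in the sources used. RMA puts arrays on a shared distribution, which removes shifts common to most transcripts. Of 45101 rows, 64 control probe sets were left out. The annotation gave 34945 of the rest 1 symbol, 932 several and 9160 none; 34741 were found by gene identifier in RefSeq GRCm38.p6, which changed 0 symbols.

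Groups came from sample titles. All 45037 probe sets were fitted with lmFit and eBayes (limma 3.58.1, R 4.3.3), withdrawal against dox, two-sided, with Benjamini-Hochberg adjustment over all and a threshold of 0.05. The fit has 4 residual and 3.54 prior degrees of freedom, and 3 arrays per group limit the precision. A gene is read from its brightest probe set (highest mean over the 6 arrays). The steps were tested on simulated data. Named genes were the members, list genes past the threshold (at most 6), the 2 largest uncalled differences of each list, the 3 nearest measured genes on each side of Mecom and Prdm16, and the closest patterns. Markers, Eed and Gata2 were named after their values were seen. Members and lists were chosen with earlier results of these data known. Alternatives were each array left out, 4 arrays, the replicate number as a block, a level filter, median centring, repeated quantile normalization, trend and robust options, array weights and averaged probe sets per gene. A planned comparison of member protein sequences was not run. Figures used matplotlib 3.10.9.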

Additional observations from a re-analysis of the deposited data

How the results depend on the processing

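The counts of called members, higher and lower, were 0 under all alternatives run, for probe sets and for genes, and the lowest adjusted p of any member was 0.155 (limma). Of 247 member differences recomputed, 20 on 11 probe sets changed sign, and none of these was called under any alternative. With 1 array left out at a time the differences ran from -0.20 to 0.0095 for Mecom 1422295_at, -0.058 to 0.016 for Prdm16 1440745_at, -0.071 to 0.13 for Prdm16 1440870_at, -0.065 to 0.026 for Ctbp1, -0.057 to 0.015 for Hdac1, -0.0027 to 0.13 for Ehmt2 1460692_at, -0.0047 to 0.16 for Ehmt2 1426888_at, -0.12 to 0.11 for Kat2b 1450821_at and -0.18 to 0.081 for Smarca4 1426805_at. They ran from -0.24 to 0.017 for Gps2, -0.0092 to 0.20 for Actrt3, -0.27 to 0.013 for Arhgef16, -0.14 to 0.032 for Megf6, -0.065 to 0.0053 for Tprgl, -0.054 to 0.012 for Actrt2 and -0.040 to 0.11 for Mmel1. On 4 arrays the sign also changed for Ctbp2 1434705_at (0.0037), Kat2b 1450821_at (0.0055), Smarca4 1426805_at (0.017) and Mmel1 (-0.0065), with probe sets averaged per gene for Prdm16 (0.016), Ctbp2 (0.045) and Mynn (-0.061), and with array weights for Arhgef16 (0.050). The cause was not tested.

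Counts over all probe sets moved more, from 356 higher and 530 lower to 88 to 256 and 173 to 346 with 1 array left out, 28 and 94 on 4 arrays, 94 and 197 with the replicate block, 862 and 1082 above the median level, 1071 and 1389 with trend and robust options, and 758 and 962 with array weights. Same-numbered arrays deviated from their group means with correlations of -0.30, 0.46 and -0.03. Arrays of different number were not compared, so these values do not settle whether the numbers pair the samples. With the replicate block 0 members were called. Fewer arrays or fewer genes tested are part of the construction of some of these fits.

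Above the median level CtBP gained 1 higher and 1 lower gene (Ikzf1 and Zeb2), SAGA 1 lower (Tada2a) and polycomb 1 higher (Phf19). With trend and robust options CtBP gained the same 1 and 1, and 1 gene was lower in each of the H3K9 (Trim28), SWI/SNF (Smarcc1), SAGA (Tada2a) and polycomb lists (Eed), with 2 higher (Jun and Gata2) and 2 lower (Dnmt3b and Gata1) among the other partners. CtBP had 1 lower gene (Zeb2) with repeated quantile normalization and with array weights, and polycomb 1 (Phc1) with array weights. Among the other partners 0 were higher on 4 arrays and with the replicate block, 0 or 1 with 1 array left out, and 0 were lower on 4 arrays. Signal over background limits Mecom and Prdm16, whose probe sets were all below the median level.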
